A study of Drosophila melanogaster with 4 samples.

Results

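The genes described here are 7 transcription regulators of the embryonic fly gut: byn (brachyenteron), cad (caudal), GATAe, drm (drumstick), bowl (brother of odd with entrails limited), lin (lines) and otp (orthopedia). They were taken by function: every gene probe of the arrays whose annotation ID belongs to one of them was used, and no measured value entered that choice. This gave 14 of the 32162 gene probes and 7 of the 13059 genes that could be named. Mutant embryos labelled as 8-miR cluster null, which lack a cluster of microRNA genes, were compared with wild type w1118 embryos, a white-eyed laboratory strain that is also given as the background of the mutant. Whole embryos came from 2 h egg collections aged for 6 h at 25 °C, a stage given as 6 to 8 h after egg laying. The labels disagree on the mutant: titles say 8-miR cltr null, source names say 8-miR cluster null, the genotype field says miR-8 cluster null, and the treatment text speaks of embryos homozygous for mir-3 ectopic expression. No probe was named for mir-3 or for any other microRNA gene (0 probes each), so the deletion could not be checked on these arrays.

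Each of 4 Agilent arrays carried RNA of both genotypes in 2 colours. Null RNA was labelled with the dye Cy3 and w1118 RNA with Cy5 for replicates 1, 2 and 3, and a further array repeated replicate 1 with exchanged dyes. The 2 arrays of replicate 1 shared slide 1, and replicates 2 and 3 shared slide 2. The design text states that the 3 biological replicates were isolated independently. All 7 genes were measured above background in both genotypes on all 4 arrays. In RNA of whole embryos, fewer cells of a type and less RNA per cell cannot be told apart.

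As background, the fly gut forms from both ends of the embryo. The terminal signalling pathway and its targets tll and hkb mark the end regions, fkh and srp commit cells to gut and to endoderm, and the midgut arises from endoderm while the hindgut arises from posterior ectoderm. Cad, a Cdx homologue, and byn, a T-box Brachyury homologue, are required to make and internalise the hindgut. GATAe acts after srp to keep the endodermal programme and to switch on midgut differentiation genes. In the hindgut, lin, drm and bowl form a relay: Lin promotes the loss of Bowl protein, and Drm, a small zinc-finger protein of the odd-skipped family, binds Lin and so lets Bowl accumulate. The relay patterns the small and large intestine. Otp is a homeodomain protein made in the hindgut and in part of the nervous system.

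Of the 7 genes, drm was higher in null embryos and the other 6 passed the test in neither direction. Drm signal was 1.41-fold that of w1118 embryos (95% interval 1.30 to 1.53), and 0 of 7 genes were lower. Calls are by limma over all 9736 genes tested, each gene taken at its brightest probe, with a Benjamini-Hochberg adjusted p under 0.05. By that rule 54.7% of all genes passed, 28.1% higher and 26.7% lower in null embryos. So 1 call among 7 genes is a lower share than over the array, at the brightest probes and in the fit reported. Over 17 alternative settings, 1 to 4 of the 7 genes were higher and 0 to 1 lower, so the share depended on the setting. With array weights 4 were higher and 1 lower, beside 3386 higher and 3211 lower of all 9736 genes. The median log2 ratio of the 7 genes, null over w1118, was 0.10, beside 0.01 for all genes tested. For the 6 genes without a call, the 95% intervals of the ratio at the brightest probe lay between 0.822-fold and 1.21-fold. These bounds do not hold for every probe. Dimmer probes of cad, bowl and otp passed, at 1.17-fold for cad (95% interval 1.08 to 1.26), 1.12-fold for 2 bowl probes and 0.714-fold for otp (0.652 to 0.782).

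**Figure D1:**
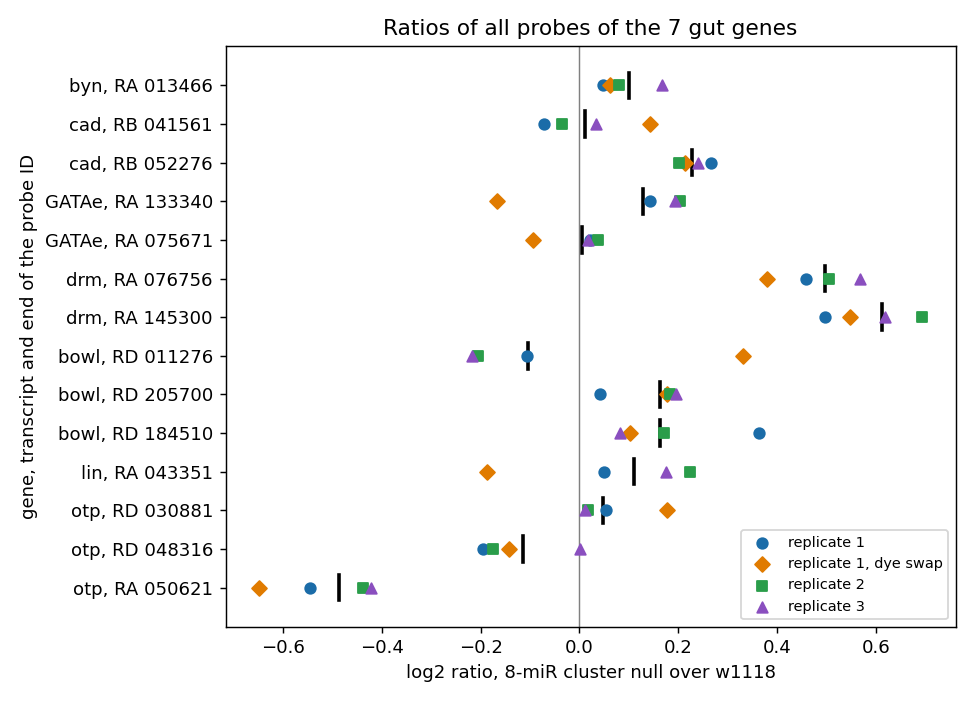
Log2 ratio of null over w1118 embryos (horizontal axis) for all 14 probes of the 7 genes, named by gene, annotated transcript and the end of the probe ID. Points are the 4 arrays, black bars the mean of 3 replicates with both replicate 1 arrays averaged first. Both drm probes lie above 0.3 on every array, and the otp probe for transcript RA lies below -0.4 on every array.

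The hindgut determinants byn and cad did not pass by their brightest probes. For byn (CG7260-RA, chromosome arm 3L), whose protein specifies the hindgut, log2 signals on the array of replicate 1, its dye swap, replicate 2 and replicate 3 were 9.18, 9.19, 9.32 and 9.28 in null embryos, against 9.13, 9.13, 9.24 and 9.11 in w1118 embryos. Null was the higher channel on each array, but the ranges of the genotypes overlapped. The log2 ratio was 0.10 ± 0.06 (SD, n = 3; 95% interval -0.01 to 0.21; limma adjusted p = 0.112). Byn had 1 probe, and its gene overlaps the protein-coding gene CG44837 in the annotation.

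Cad (CG1759-RB, arm 2L) had 2 probes for the same transcript, and they gave different results. The brighter one had log2 signals of 10.71, 10.78, 10.66 and 10.69 in null embryos, against 10.78, 10.64, 10.70 and 10.66 in w1118 embryos, in the same order of arrays. The genotypes overlapped and the ratio changed sign between arrays, averaging 0.01 ± 0.04 with an interval of -0.10 to 0.12 (n = 3; limma adjusted p = 0.842). The dimmer probe, A_09_P052276, had log2 signals of 7.33, 7.35, 7.21 and 7.27 in null embryos, against 7.06, 7.13, 7.01 and 7.03 in w1118 embryos. Here all null values lay above all w1118 values. Its log2 ratio was 0.23 ± 0.02 (SD, n = 3), a 1.17-fold higher signal in null embryos, with a limma adjusted p of 0.00669 over the 19750 probes fitted, of which 50.4% passed. The ratios of the pair differed from each other (limma's diffSplice, adjusted p = 0.0196), as did those of 35.1% of the 3082 genes with at least 2 kept probes.

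The endoderm regulator GATAe (CG10278-RA, arm 3R) gave no call at either probe. Its brighter probe had log2 signals of 11.13, 10.96, 10.82 and 10.77 in null embryos, against 10.98, 11.12, 10.62 and 10.57 in w1118 embryos. Null was higher on the 3 unswapped arrays and lower on the dye-swap array, and the genotypes overlapped. The mean log2 ratio was 0.13 ± 0.12 (SD, n = 3; interval -0.01 to 0.27; limma adjusted p = 0.104). At the other probe, ratios of 0.02, -0.09, 0.04 and 0.02 averaged 0.01 (limma adjusted p = 0.925), again with the dye-swap array alone below 0. No difference between the 2 GATAe probes was called (diffSplice adjusted p = 0.229).

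In the relay of Lin, Drm and Bowl, drm passed the test, and lin and bowl did not at their brightest probes. Drm (CG10016-RA, arm 2L), the member that frees Bowl from Lin, rose at both of its probes. Its brighter probe had log2 signals of 12.80, 12.82, 12.90 and 13.01 in null embryos, against 12.35, 12.44, 12.40 and 12.44 in w1118 embryos. Every null value exceeded every w1118 value. The log2 ratios of the 4 arrays were 0.46, 0.38, 0.51 and 0.57, averaging 0.50 ± 0.07 (SD, n = 3; interval 0.38 to 0.62; limma adjusted p = 0.000294). That ratio ranked 666 from the highest among the 9736 genes.

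At the other drm probe, A_09_P145300, log2 signals were 12.86, 12.85, 12.66 and 12.70 in null embryos, against 12.36, 12.30, 11.97 and 12.08 in w1118 embryos, with no overlap. The log2 ratio was 0.61 ± 0.09 (SD, n = 3), 1.53-fold, with a limma adjusted p of 0.000159, and was positive on all 4 arrays. No difference between the probes was called (diffSplice adjusted p = 0.238). Under all 17 alternative settings the brighter drm probe passed as higher in null embryos, with log2 ratios of 0.45 to 0.55. The highest adjusted p among them was 0.0427, in a test without moderation of the variances.

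Lin (CG11770-RA, arm 2R), the antagonist of Bowl in this relay, had 1 probe. Its log2 signals were 12.85, 12.69, 12.74 and 12.72 in null embryos, against 12.80, 12.88, 12.52 and 12.54 in w1118 embryos. Null was higher on the unswapped arrays and lower on the dye-swap array, with overlapping genotypes. The mean log2 ratio was 0.11 ± 0.16 (SD, n = 3; interval -0.05 to 0.27; limma adjusted p = 0.198). In the annotation lin overlaps the protein-coding gene CG34219.

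Bowl (CG10021-RD, arm 2L), the zinc-finger effector of the relay, had 3 probes for the same transcript, and their signs differed. The brightest had log2 signals of 12.81, 13.00, 12.57 and 12.51 in null embryos, against 12.91, 12.67, 12.78 and 12.73 in w1118 embryos. Null was lower on the unswapped arrays and higher on the dye-swap array, so the genotypes overlapped. The mean log2 ratio was -0.10 ± 0.19 (SD, n = 3; interval -0.28 to 0.07; limma adjusted p = 0.273).

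The second bowl probe, A_09_P205700, had ratios of 0.04, 0.18, 0.18 and 0.20 and passed as higher in null embryos at 0.16 ± 0.05 (SD, n = 3; limma adjusted p = 0.0284). The third, A_09_P184510, had ratios of 0.36, 0.10, 0.17 and 0.08 and passed at 0.16 ± 0.08 (SD, n = 3; limma adjusted p = 0.0365). The third was dim, and in w1118 embryos it was above background on 3 of 4 arrays. The second kept its call under 3 of 10 alternatives and the third under 5 of 10. Bowl as a whole just missed the threshold for differing probes (diffSplice adjusted p = 0.0502). Its brightest probe differed from the others by -0.27 (adjusted p = 0.0236), beside 30.1% of 7582 probes that differed from the rest of their gene.

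**Figure D2:**
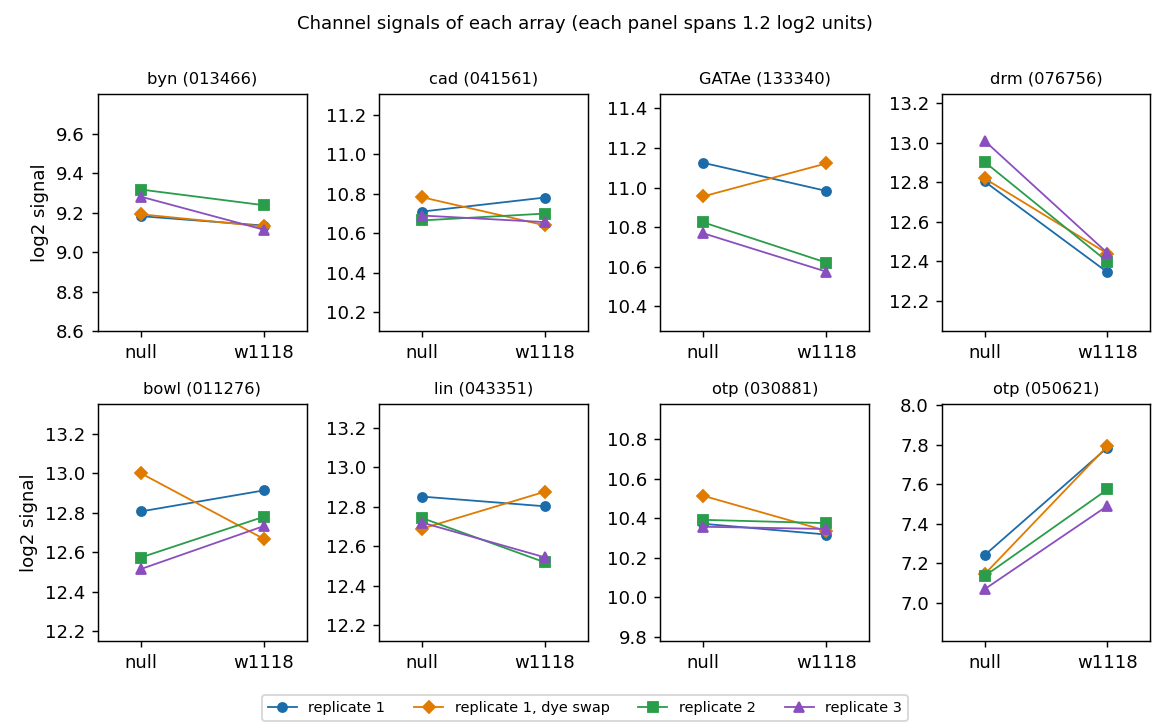
Log2 channel signal (vertical axis, each panel spanning the same range) in null and w1118 embryos for the brightest probe of each gene and for the otp probe of transcript RA. Lines join the 2 channels of 1 array. All 4 lines slope down from null to w1118 for drm and up for the otp RA probe. For cad, bowl and lin the dye-swap line crosses all the other lines, and for GATAe it crosses only that of replicate 1.

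Otp (arm 2R), a homeobox gene of the hindgut and nervous system, gave different results by probe, with 2 probes annotated for transcript CG10036-RD and 1 for CG10036-RA. The brightest, an RD probe, had log2 signals of 10.37, 10.51, 10.39 and 10.36 in null embryos, against 10.32, 10.34, 10.38 and 10.35 in w1118 embryos. Its ratio was above 0 on each array, the genotypes overlapped, and the mean was 0.05 ± 0.06 (SD, n = 3; interval -0.06 to 0.16; limma adjusted p = 0.416). The second RD probe had ratios of -0.20, -0.14, -0.17 and 0.00049, with a mean of -0.11 ± 0.10 (SD, n = 3; limma adjusted p = 0.128).

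The RA probe, A_09_P050621, had log2 signals of 7.24, 7.14, 7.14 and 7.07 in null embryos, against 7.79, 7.79, 7.57 and 7.49 in w1118 embryos. All null values lay below all w1118 values. The log2 ratios were -0.54, -0.65, -0.44 and -0.42, averaging -0.49 ± 0.10 (SD, n = 3; interval -0.62 to -0.35; limma adjusted p = 0.000527), which is 0.714-fold. This probe was lower in null embryos under all 10 alternatives run for it, with ratios of -0.81 to -0.43.

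The 3 otp probes differed (diffSplice adjusted p = 0.000532). The RA probe stood at -0.45 relative to the others (adjusted p = 0.000281), and the brightest RD probe at 0.35 (adjusted p = 0.00174). Taken as the mean of its kept probes, otp passed as lower in null embryos, at -0.18 (limma adjusted p = 0.00908), so the sign of the gene's value turned with the way probes were combined. An antisense RNA gene, asRNA:CR43160, overlaps otp in the annotation. Which transcript each probe reads was not tested, since the sequences of the probes were not used here.

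The sign of some genes differed with the dye orientation, a comparison that rests on 1 dye-swap array. Cad, GATAe, bowl and lin had opposite signs on the 2 arrays of replicate 1, which hold the same extracts, whereas byn, drm and otp had 1 sign on all 4 arrays at their brightest probe. Averaged within slide 1, with both dye orientations, and within slide 2, with 1 orientation, log2 ratios were -0.01 and 0.20 for GATAe, 0.11 and -0.21 for bowl, and -0.07 and 0.20 for lin. They were 0.42 and 0.54 for drm, 0.05 and 0.12 for byn, 0.04 and -0.00058 for cad, and 0.12 and 0.01 for otp. On slide 1, the unswapped array had the sign of both slide 2 arrays for GATAe (0.14), bowl (-0.11) and lin (0.05). The dye-swap array had the other sign (-0.17, 0.33 and -0.19). For cad the unswapped arrays of replicates 1, 2 and 3 were themselves mixed in sign, at -0.07, -0.03 and 0.03.

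With replicate 1 taken without its dye-swap array, GATAe (0.18, limma adjusted p = 0.00513) and lin (0.15, adjusted p = 0.0277) passed as higher in null embryos, and bowl (-0.18, adjusted p = 0.00879) passed as lower. With a dye term fitted over the 4 arrays, the same 3 genes did not pass, at 0.0067, -0.02 and 0.08 for GATAe, lin and bowl. Drm passed in both fits, at 0.51 and 0.45. Among all 5330 called genes, 648 pointed the other way on the array with exchanged dyes.

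**Figure D3:**
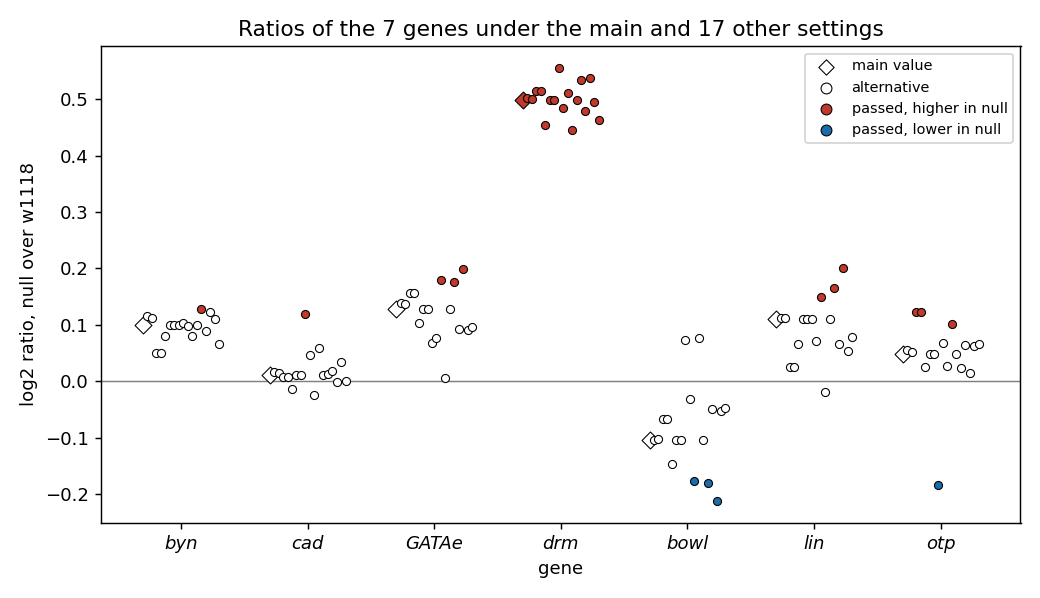
Log2 ratio of null over w1118 embryos (vertical axis) of each gene under the settings reported (diamonds) and 17 alternatives (circles). Colour marks values that passed at an adjusted p under 0.05. All drm values lie between 0.45 and 0.55 and passed, while cad, bowl, lin and otp take both signs.

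Lists of 48 further genes were also examined, of which 46 were measured. The lists hold genes with known roles in gut development, except for Rx and hbn, 2 homeobox genes listed as neighbours of otp. Of these, hbn was 1 of the lower genes counted below. RNA came from whole embryos, so the share of each signal that came from the gut was not measured. Of the 46 measured list genes, 24 were lower and 6 higher in null embryos, or 52.2% and 13.0%, beside 26.7% and 28.1% of all genes tested. The lists were chosen with earlier results of these data known, so these shares do not stand as an independent result. The median log2 ratio of the lists was -0.14, beside 0.01 for all genes tested. Of the 24 lower genes 17 were also below 0 on the dye-swap array, and all 6 higher genes were above 0 there. The median over the lists was -0.18, -0.13 and -0.16 on the arrays of replicates 1, 2 and 3, and -0.02 on the dye-swap array. The lower count was 13 with replicate 1 from the dye-swap array alone, 14 without replicate 3 and 11 in the test without moderation. All values that follow are log2 ratios of the brightest probe, null over w1118, with SD over 3 replicates.

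Among 7 genes that act before or beside the hindgut and endoderm determinants, 1 was higher and 3 were lower. The terminal receptor gene tor stood at 0.46 ± 0.11. Lower were the terminal gap gene tll (-0.30 ± 0.04), the fork head factor gene fkh (-0.38 ± 0.04) and the GATA factor gene srp (-0.13 ± 0.03), which commits cells to endoderm. Srp was at 0.0018 on the dye-swap array. GATAe is known to act after srp, and GATAe itself did not pass. The terminal gap gene hkb was at -0.05 and did not pass. Nor did wg, at -0.17 ± 0.33, but its 2 other probes stood at -0.33 and 1.56.

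The odd-skipped family holds drm, bowl, sob and odd. Sob, another zinc-finger gene of the family, was lower in null embryos on each array, with log2 ratios of -0.71, -0.66, -0.78 and -0.79 and a mean of -0.75 ± 0.05 (limma adjusted p = 3.89e-05). Odd, the pair-rule gene that gives the family its name, did not pass at 0.05 ± 0.14 (limma adjusted p = 0.55). So within this family drm passed as higher, sob passed as lower, and neither bowl nor odd passed at the brightest probe.

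Of 9 endoderm and midgut genes, 5 were lower and 1 was higher. The POU factor gene nub (-0.59 ± 0.13) and the midgut gene mex1 (-0.54 ± 0.05) had the lowest ratios, followed by GATAd (-0.27 ± 0.05), the homeotic gene lab (-0.22 ± 0.16) and the snail-family gene esg (-0.18 ± 0.02). The homeobox gene Ptx1 was higher at 0.21 ± 0.06. Lab was positive on the dye-swap array, at 0.18, and another GATAd probe gave -0.0078.

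Of 14 hindgut patterning and morphogenesis genes, 10 were lower and 1 was higher, while byn and cad did not pass. The lower genes included regional selector genes of the hindgut wall, en (-0.15 ± 0.02) and inv (-0.42 ± 0.09), and the signals dpp (-0.32 ± 0.15), hh (-0.17 ± 0.10), Ser (-0.13 ± 0.03) and upd1 (-0.14 ± 0.05). Also lower were rho (-0.56 ± 0.06), which activates EGF ligands, the polarity gene crb (-0.17 ± 0.09), raw (-0.37 ± 0.20) and Myo31DF (-0.25 ± 0.03), the unconventional myosin that sets the handedness of the hindgut. Retn, also known as dead ringer, was higher at 0.47 ± 0.07. Ser, crb and raw were above 0 on the dye-swap array, at 0.08 each, and raw had another probe at 0.10.

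The remaining lists cover tissues that form beside the hindgut and endoderm, and 2 homeobox genes listed as neighbours of otp. Of 5 Malpighian tubule genes, the gap gene Kr was 10.99-fold higher in null embryos (log2 3.46 ± 0.17), while svp (-0.28 ± 0.08) and tio (-0.24 ± 0.12) were lower. Of 7 genes of the visceral mesoderm, which surrounds the gut, bin (0.29 ± 0.08) and the ligand gene jeb (0.20 ± 0.08) were higher, and bap (-0.27 ± 0.09) and Fas3 (-0.26 ± 0.09) were lower. Bap and Fas3 were above 0 on the dye-swap array, at 0.03 for bap and 0.02 for Fas3, and each had another probe above 0, at 0.02 for bap and 0.33 for Fas3. Of the homeobox genes beside otp, hbn was lower at -0.78 ± 0.07, and Rx did not pass at -0.01 ± 0.09.

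**Figure D4:**
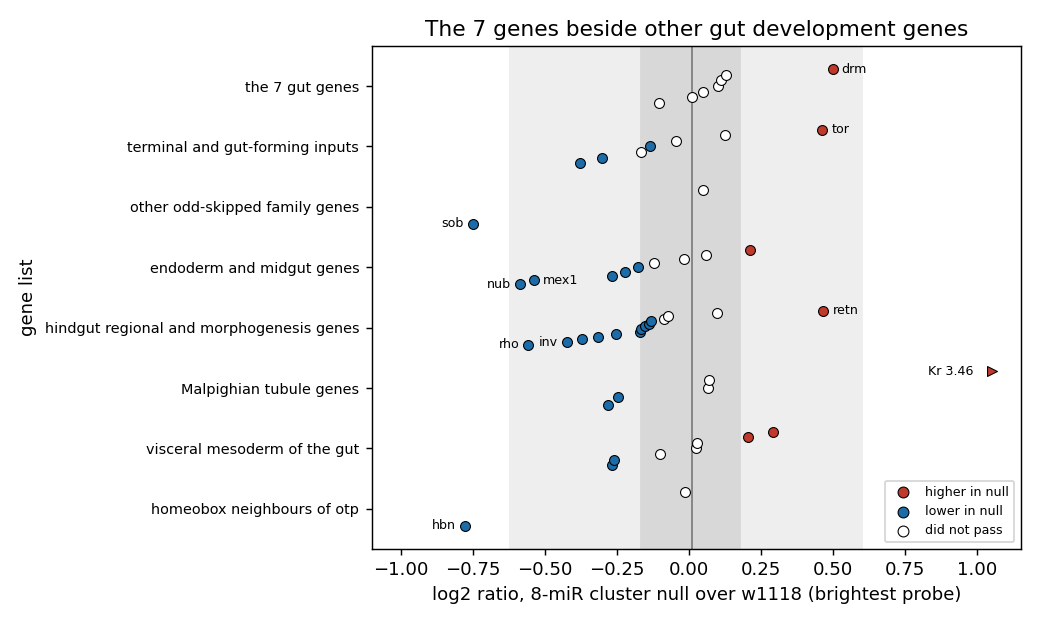
Log2 ratio of null over w1118 embryos (horizontal axis, brightest probe) for the 7 genes and for the further genes by list. Red and blue points passed at an adjusted p under 0.05, the dark and pale bands hold the middle 50% and 90% of all genes tested, and Kr lies off the scale at 3.46. Drm is the red point of the top list, and blue points outnumber red ones over the other lists together.

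Patterning genes were read as a sign of embryonic RNA, which cannot tell whole embryos from parts of them. Of 8 listed, 7 were measured, all of them above background in both genotypes on all arrays, and 1 was higher and 0 were lower in null embryos. Markers of other cells differed between the genotypes. Another probe of the muscle gene Mlp60A stood at 0.24, but at their brightest probe all 8 differentiated muscle genes were lower, with a median log2 ratio of -0.61 and summed signals of 6526 to 6743 in null embryos against 10130 to 10719 in w1118 embryos. Of 10 measured eggshell and yolk genes of the mother, 6 were lower and 1 was higher, with sums of 1226 to 1266 in null embryos against 2233 to 2437 in w1118 embryos, and Vm32E was not well above background on any null array.

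Of 4 measured neuron genes 3 were lower and 1 was higher, with sums of 19717 to 22550 in null embryos against 22379 to 33215 in w1118 embryos. Of 4 measured hemocyte genes 2 were lower and 2 higher, with a median log2 ratio of 0.48. Their sums were 9512 to 11651 in null embryos against 9996 to 11392 in w1118 embryos. Pxn and PPO1 were higher, at 1.41 each, and crq (-0.78) and Hml (-0.44) were lower. Hml was not well above background on any null array. Of 9 digestive enzyme genes 4 were higher and 4 lower, with a median log2 ratio of 0.09. Their sums were 5054 to 5711 in null embryos against 15976 to 18097 in w1118 embryos. The lysozyme genes LysB, LysD and LysE, the brightest of the list in w1118 embryos, had log2 ratios of -2.78, -3.15 and -3.23. Amy-p, Amy-d and Mal-A1 were higher, at 2.73, 2.66 and 2.47. Of 8 measured maternal transcripts 4 were higher and 2 lower, and of 4 measured cellularisation genes 1 was higher and 1 lower. The part of these differences in the values of the 7 genes was not tested.

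Drm had the largest absolute ratio of the 7 genes, and its pattern over the 4 arrays was set against 8645 other genes above background in both genotypes. By Euclidean distance of the log2 ratios, the nearest were qkr54B at 0.0483, CG14490 at 0.0508 and CG18628 at 0.0519. Their mean log2 ratios were 0.49, 0.50 and 0.52, beside 0.50 for drm. These genes were picked by their ratios, so the closeness of the means follows from the choice.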

How the data were processed

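Total RNA was hybridised to 4 Agilent 2-colour arrays. Spots had been read by the authors in Agilent Feature Extraction (version 10.1.1.1, per the file headers). From the deposited files came the intensity of each spot and of its local background, as medians per channel and before any normalization. Processed intensity, which the file headers describe as free of background and balanced between dyes, served as an alternative. The authors' deposited log ratio is a log10 of Cy5 over Cy3. The authors' series matrix holds log2 values of unstated scale, centring and direction. Set against the processed signals, its columns had slopes near -1.00 on null over w1118, so they run w1118 over null. Their medians were -0.137, 0.071, 0.128 and -0.041 for replicates 1, 2 and 3 and the dye swap, so centring beyond that of the processed signals stays unknown.

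Background correction used normexp with an offset of 50 (limma 3.58.1, R 4.3.3), followed by loess within each array, with control and outlier spots at weight 0. Ratios were turned to null over w1118 by the labelled dyes. Both arrays of replicate 1 were averaged, leaving 3 replicates. Probes had to be above background in one genotype in 2 or more replicates, and the brightest such probe stood for its gene. Kept probes numbered 19753, including all 14 of the 7 genes, and the 19750 with a ratio in all 3 replicates were fitted, and 56.7% to 65.8% of spots per channel were well above background. Between unswapped arrays, ratios correlated across probes at 0.941 to 0.958, and with the dye swap at 0.824 to 0.883. The small number of arrays limits the precision. Channel signals were scaled with Aquantile. Fits used lmFit, eBayes and diffSplice, with Benjamini-Hochberg adjusted p under 0.05, and were tested on simulated data. The arrays compare 3 pairs of extracts, and each array pairs the genotypes.

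Gene names came from an annotation of the Release 6 assembly, whereas the array design used release 5.4, so no coordinates are given. Of 120 listed symbols, 4 were not matched and were not analysed. The named genes were all 7 with all probes, gene lists with values where called, and the nearest patterns to the gene of largest ratio. The genes hkb, wg, odd, Rx, Vm32E, Hml, Pxn, PPO1, crq, Mlp60A, LysB, LysD, LysE, Amy-p, Amy-d and Mal-A1 and the genes beside the 7 fall outside that rule. So do the values of single further probes or arrays of listed genes. All of these were chosen after their values were seen. The genes and lists were chosen with earlier results of these data known. Alternatives covered background, signal, normalization, filter, probe summary, dye, test, array weights, slide and each replicate left out.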

Additional observations from a re-analysis of the deposited data

Results flagged for a closer look

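For each of the 14 probes of the 7 genes, the 4 arrays were compared for 1 array far from the rest, and 3 probes had one. Chance gives such a gap in about 1 in 20 groups. The brighter GATAe probe had a log2 ratio of -0.167 on the dye-swap array, against 0.142 to 0.204 on the others. The other GATAe probe had -0.0931 on the same array, against 0.0168 to 0.0369. The second bowl probe, A_09_P205700, had 0.0409 on the unswapped array of replicate 1, against 0.178 to 0.195 on the others. In each case the array apart belongs to replicate 1 on slide 1.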

How the results depend on the processing

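Drm passed as higher under all 17 alternatives, and no other gene of the 7 kept 1 call throughout. With processed signals, and likewise with the deposited matrix, otp passed at 0.12, making 2 higher genes. With the mean of kept probes, cad passed at 0.12, otp turned to -0.18 and passed as lower, and bowl turned to 0.074 without passing, making 2 higher and 1 lower. Without the dye-swap array cad turned to -0.024, and GATAe (0.18), lin (0.15) and bowl (-0.18) passed, making 3 higher and 1 lower. With a dye term otp passed at 0.10, bowl turned to 0.078 and lin to -0.018, making 2 higher. With array weights byn (0.13), GATAe (0.18), lin (0.16) and bowl (-0.18) passed, making 4 higher and 1 lower. Median centring turned cad to -0.014.

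Leaving out each replicate gave ranges of 0.067 to 0.12 for byn, -0.00058 to 0.035 for cad, 0.091 to 0.20 for GATAe, 0.46 to 0.54 for drm, -0.21 to -0.047 for bowl, 0.054 to 0.20 for lin and 0.014 to 0.066 for otp, with 1 to 3 of the 7 genes higher and 0 to 1 lower. GATAe (0.20), bowl (-0.21) and lin (0.20) passed without replicate 1. Over all genes these fits called 1768 to 3003 higher and 1713 to 2847 lower, the fewest without replicate 3. With replicate 1 from the dye swap alone the counts were 1748 and 1681, and in the test without moderation 1062 and 1023, beside 2735 and 2595. In the further lists 5 to 7 genes were higher and 14 to 23 lower with a replicate left out. There, 13 were lower with the dye swap alone, and 2 higher and 11 lower in the test without moderation. The cause of these changes was not tested.

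The dimmer cad probe passed in 9 of 10 alternatives, and not without replicate 3 (adjusted p = 0.0631). The list counts and the further probes were rerun under alternatives added after their values were seen. Slide as a random block was run over 4 arrays, counting the extracts of replicate 1 as 2, with a correlation within slides of 0.0588. The dye term was also fitted over 4 arrays and counted these extracts as 2. The fit reported is already paired, since each ratio sets both genotypes of a replicate against each other on 1 array, and it took no further replicate block. Arrays limit precision by their number, and the dimmest probes of bowl, cad and otp had the lowest signals among the 14.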

Other observations

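The nearest measured gene on either side of each of the 7 genes was looked up in the Release 6 gene order, a choice made after the values of the 7 genes were seen. Of these 14 neighbours, 2 were higher, 6 were lower and 6 did not pass. Over all genes tested, 28.1% were higher and 26.7% lower, so 54.7% passed in either direction. Drm, which rose, lies between Spindly at -0.54 ± 0.10 (SD, n = 3; limma adjusted p = 0.000288) and sob at -0.75 ± 0.05 (adjusted p = 3.89e-05), both lower in null embryos on all 4 arrays. GATAe lies between the GATA-family genes srp, at -0.13 ± 0.03 (adjusted p = 0.0396; 0.0018 on the dye-swap array), and pnr, at -0.18 ± 0.04 (adjusted p = 0.0142). Both of these passed as lower, while GATAe did not pass at 0.13.

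Cad lies between dia, a formin gene that was higher at 0.23 ± 0.04, and Pomp, which did not pass at 0.03. Bowl lies between CG10019, lower at -0.23 ± 0.20 but at 0.18 on the dye-swap array, and bark, which did not pass at 0.11. The neighbours of lin, Pgi and CG8248, did not pass and were both at -0.08. Beside otp, Cib2 was higher at 0.23 ± 0.03 and Rx did not pass. Beside byn, SdhAL did not pass at 0.02, and Rpt4R was lower at -0.26 ± 0.18 but was above background on 0 null and 2 w1118 arrays.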
